A study of Mus musculus with 18 samples.

Results

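In mouse embryonic fibroblasts (MEF) treated with TGF-β, cells carrying the Col1a1-miR-29b vector were compared with cells carrying the CMV-miR-29b vector, with 3 RNA sequencing libraries in each group, 6 of the 18 libraries of the study. Both vectors carry a human miR-29b-1 sequence, in one behind a rat Col1a1 promoter and in the other behind the CMV promoter, and per the methods they were transfected in equal molar amounts. Cells of both groups received TGF-β 6 h after transfection and were grown with it for 24 h, and the remaining groups held the same vectors without TGF-β or an empty vector with or without it. All 21161 genes that passed edgeR's filter on low counts entered the comparison, of 55450 genes in the table. Because the vectors differ in promoter and in length, and therefore in the mass of DNA at equal molar amounts, these differences cannot be told apart.

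MEF are cultured cells that make extracellular matrix, and TGF-β drives them to make more collagen. miR-29b is a microRNA of the miR-29 family, which pairs through its seed (bases 2 to 8 from the 5' end) with the 3' UTR of many collagen and other matrix messenger RNAs and lowers their level. The Col1a1 promoter is active in cells that make collagen, whereas the CMV promoter is active in most cells. Interferons are secreted proteins that raise a wide set of antiviral genes in the cells they reach, and fibroblasts both make them and respond to them.

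The seed links the vectors' product to its possible targets, so the mature sequences are given first, from RefSeq on GRCm38.p6, with the seed in capitals.
mmu-miR-29b-3p: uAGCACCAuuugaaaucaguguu
mmu-miR-29a-3p: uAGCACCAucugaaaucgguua
mmu-miR-29c-3p: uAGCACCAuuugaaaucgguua
All 3 share the seed, so a seed match does not tell the family members apart. Of the fibrillar collagens named below, Col1a1, Col3a1 and Col5a3 hold the 8-base match TGGTGCTA in the longest annotated 3' UTR. The windows below are from the GENCODE transcripts of GRCm38, with the match in capitals.
Col1a1, chr11:94952527-94952556, plus strand: gaaggaatttcTGGTGCTAtagaagctgag
Col3a1, chr1:45348971-45349000, plus strand: aaatgtctcaaTGGTGCTAtaataaataaa
Col5a3, chr9:20770492-20770521, minus strand: accaggcctttTGGTGCTAttcctttccat

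Total counts ran from 65898017 to 80332633 over the 18 libraries, and each call below is an adjusted p under 0.05 from edgeR's quasi-likelihood test with Benjamini-Hochberg adjustment. Within each group, pairs of libraries correlated at 0.973 to 0.977 over log2 CPM (counts scaled to a common library size with TMM factors), and the chi-square per gene between libraries of the same group was 37.0 to 46.7 in the 6 libraries compared. The methods speak of 3 repeat experiments in each group, and the labels do not say whether the libraries came from separate cultures, so p-values measure the spread between these libraries. Of 12 fibroblast markers, 10 had over 3 counts in every library compared and 1, Lum, had 3 or fewer in all of them. Markers of leukocytes summed to 22.7 to 28.0 CPM and those of endothelial, epithelial, muscle, fat and neural cells to at most 5.58, against 5140 to 6210 for fibroblasts. Neural markers summed to 1.49 to 2.69 with the Col1a1-miR-29b vector and 3.08 to 3.85 with the CMV-miR-29b vector, and fibroblast markers to 5140 to 5220 and 5670 to 6210. The share of counts from mitochondrial genes was 2.15% to 2.31% with the Col1a1-miR-29b vector and 2.45% to 2.65% with the CMV-miR-29b vector. The share from the ribosomal RNA related genes Gm42418 and Gm26917 was 0.0149% to 0.0155% and 0.0189% to 0.0207%. The part of these differences in the results was not tested.

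The miR-29b-1 precursor was far lower with the Col1a1 promoter than with the CMV promoter, also in the presence of TGF-β. Mir29b-1 (ENSMUSG00000065604, chr6:31063023-31063093 of GRCm38, minus strand), the gene of the precursor, had 214, 203 and 293 counts in the CMV-miR-29b libraries with TGF-β. In the Col1a1-miR-29b libraries with TGF-β it had 4, 2 and 6 counts. The groups stood far apart, and no empty vector library held a count. The sum over 3 libraries was 710 against 12 counts, a ratio of normalised counts of 60.9 (95% interval 34.7 to 118, exact binomial, counting error only). The log2 fold change, Col1a1-miR-29b over CMV-miR-29b as throughout, was −5.88 with a standard error (SE) of 0.57 (adjusted p = 0.00159). It was the gene that passed a test against a 2-fold change, and no other did. A two-sided exact permutation test of the 3 libraries against 3 gave p = 0.1, the smallest p this design allows. The call stood in each of the 6 fits that left out 1 of the libraries compared, with log2 fold changes of −6.31 to −5.56.

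Gm27019, a gene that overlaps the end of Mir29b-1 on the same strand, had 39, 49 and 48 counts with the CMV-miR-29b vector and 1, 1 and 6 with the Col1a1-miR-29b vector. The difference was −4.06 ± 0.96 (log2 fold change ± SE, adjusted p = 0.0455), a call that was lost without any single library (adjusted p up to 0.164). Mir29b-2, the other gene of miR-29b, had 0 to 1 counts and was not tested. The libraries were made from poly(A) RNA, so these counts are of transcripts that carry the precursor, and the mature microRNA was not measured.

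Over all genes, 408 of 21161 (1.93%) were called between the vectors with TGF-β, 193 higher with the Col1a1-miR-29b vector (0.912%) and 215 lower (1.02%). Most differences were small. The median change of the called genes was 1.24-fold, and 25 genes (0.118%) were called and differed at least 2-fold, 11 of them higher and 14 lower. Of these 25 genes, 13 had a mean of under 1 CPM. The 408 called genes all had libraries that did not overlap between the groups, as had 11.7% of all genes in the higher and 11.6% in the lower direction. The number of calls rested on having all 6 libraries, and on the libraries of the other groups, which entered the estimate of the spread. With only the 6 libraries compared, 48 genes were called, among them 36 of the 408. In the fit of all groups, the number of calls was 131, 40 and 137 without CMV-miR-29b replicate c, d and e. Replicate d of this group had the lowest total counts of the 18 libraries (65898017) and the fewest genes with a count (23237). The part of its depth in the calls was not tested. The number of calls was 59, 92 and 63 without Col1a1-miR-29b replicate c, d and the unlettered one. DESeq2 called 1129 genes, among them 393 of the 408.

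**Figure D1:**
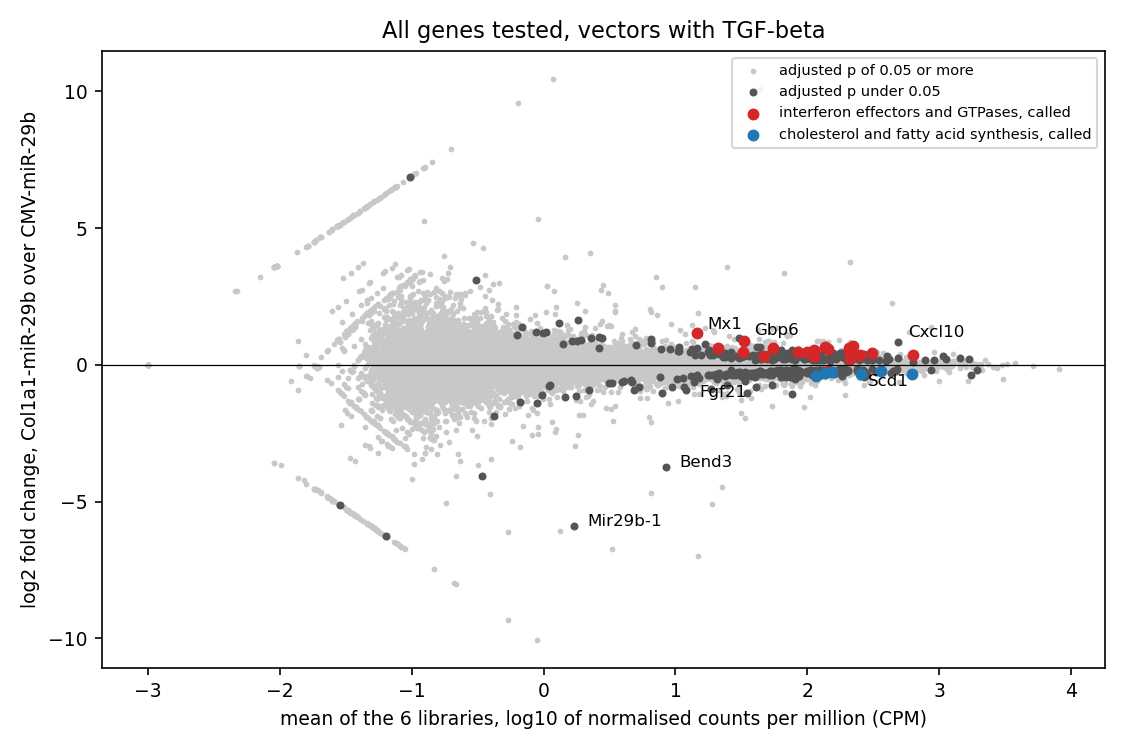
Log2 fold change between the vectors with TGF-β (vertical axis) against the mean of the 6 libraries in log10 CPM (horizontal axis), 1 point per gene tested. Dark points are the 408 called genes, red points called interferon effectors and GTPases, and blue points called cholesterol and fatty acid genes. Mir29b-1 and Bend3 stand far below the rest of the called genes of more than 1 CPM.

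Interferon-induced genes were higher with the Col1a1-miR-29b vector. Of 43 antiviral effectors, the proteins that block virus entry, translation and release, 14 rose (background 0.912%) and 1 fell, with a median log2 fold change of 0.353 against 0.005 over all genes tested. Libraries did not overlap for 31 of the 43 in the higher direction (background 11.7%). Of 18 interferon-inducible GTPases, which attack the membranes around microbes inside cells, 6 rose and none fell, and all 18 had a positive log2 fold change, with a median of 0.496. The median of the effectors was 0.311 to 0.422, and that of the GTPases 0.366 to 0.547, over every alternative way of processing.

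The strongest call of the comparison was Cxcl10, a chemokine that draws T cells. Its CPM was 366, 330 and 349 with the CMV-miR-29b vector and 606, 634 and 613 with the Col1a1-miR-29b vector. All Col1a1-miR-29b libraries were above all CMV-miR-29b libraries, which stood near the empty vector at 335 to 356. The difference was 0.83 ± 0.05 (log2 fold change ± SE, adjusted p = 7.62e-07). Usp18, a protease that removes ISG15 and limits interferon signalling, had 156, 163 and 169 CPM against 251, 268.5 and 228.5. The difference was 0.62 ± 0.07 (log2 fold change ± SE, adjusted p = 0.00127). Ifit1, which binds viral RNA caps, had 161, 183 and 171 CPM with the CMV-miR-29b vector and 267, 306 and 256 with the Col1a1-miR-29b vector. The 2 groups did not overlap, and Ifit1 was 1.61-fold higher (adjusted p = 0.00596). Mx1, an antiviral GTPase of low level, had 8.01, 10.3 and 8.61 CPM against 18.6, 24.5 and 17.2, a difference of 1.16 ± 0.19 (log2 fold change ± SE, adjusted p = 0.0109). Oas2, which makes the 2'-5' oligoadenylates that activate RNase L, had 40.6, 43.5 and 44.3 CPM against 64.0, 74.5 and 59.7. It rose 1.54-fold (adjusted p = 0.00891). Ifit1bl2, a relative of Ifit1 outside the list, rose 1.92-fold (adjusted p = 0.00721), from 4.14, 4.79 and 4.36 CPM to 8.47, 8.33 and 8.75.

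Further effectors with calls were Oas1a, Oas1c, Oas1g and Oas3 of the same oligoadenylate family, Bst2, which tethers virus particles, the ubiquitin-like Isg15, Ifitm3, Ifi35, Trim30a and Xaf1. Oas1a, Oas1c and Oas1g are close copies of each other, so reads may be split among them and their separate values are uncertain. Bst2 had 250, 276 and 266 CPM against 366, 366 and 340, a difference of 0.44 on the log2 scale (adjusted p = 0.0015). Isg15 had 209, 223 and 228 CPM against 292, 296 and 267, a difference of 0.37 on the log2 scale (adjusted p = 0.0138). Ifi27 was the one effector that fell, with 153, 148 and 163 CPM against 137, 128 and 132 (log2 fold change −0.23, adjusted p = 0.0318). Bst2, Ifi35, Oas1a and Oas1g were called in all 6 fits without 1 library. Isg15 and Ifitm3 lost the call without replicate c or d of either vector, Oas1c and Xaf1 without CMV-miR-29b replicate d or e or Col1a1-miR-29b replicate c or d, Oas3 without any library but the unlettered one, and Trim30a and Ifi27 without any single library, with adjusted p of up to 0.166.

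Among the GTPases, Igtp had 107, 98.3 and 115 CPM with the CMV-miR-29b vector and 167, 174 and 160 with the Col1a1-miR-29b vector. The difference was 0.64 ± 0.07 (log2 fold change ± SE, adjusted p = 0.00142). The guanylate-binding protein Gbp6 had 24.8, 20.4 and 24.4 CPM against 40.3, 51.6 and 36.5, a difference of 0.88 ± 0.13 (log2 fold change ± SE, adjusted p = 0.00596). Irgm2 had 111, 116 and 116 CPM against 175, 183 and 153, and Gbp9 had 18.2, 16.8 and 14.6 against 24.7, 28.0 and 23.1, with no overlap. The fold was 1.49 for Irgm2 (adjusted p = 0.00596) and 1.53 for Gbp9 (adjusted p = 0.00647). Gbp2 and Gbp3 were the other 2 called members, of which Gbp3 was called in all 6 fits without 1 library and Gbp2 in the fit without CMV-miR-29b replicate c (adjusted p up to 0.113). Gm12250, an immunity-related GTPase outside the list, was among the 10 largest rises, with 0.532, 0.887 and 0.632 CPM against 1.62, 2.12 and 2.10 (log2 fold change 1.51, adjusted p = 0.0318).

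**Figure D2:**
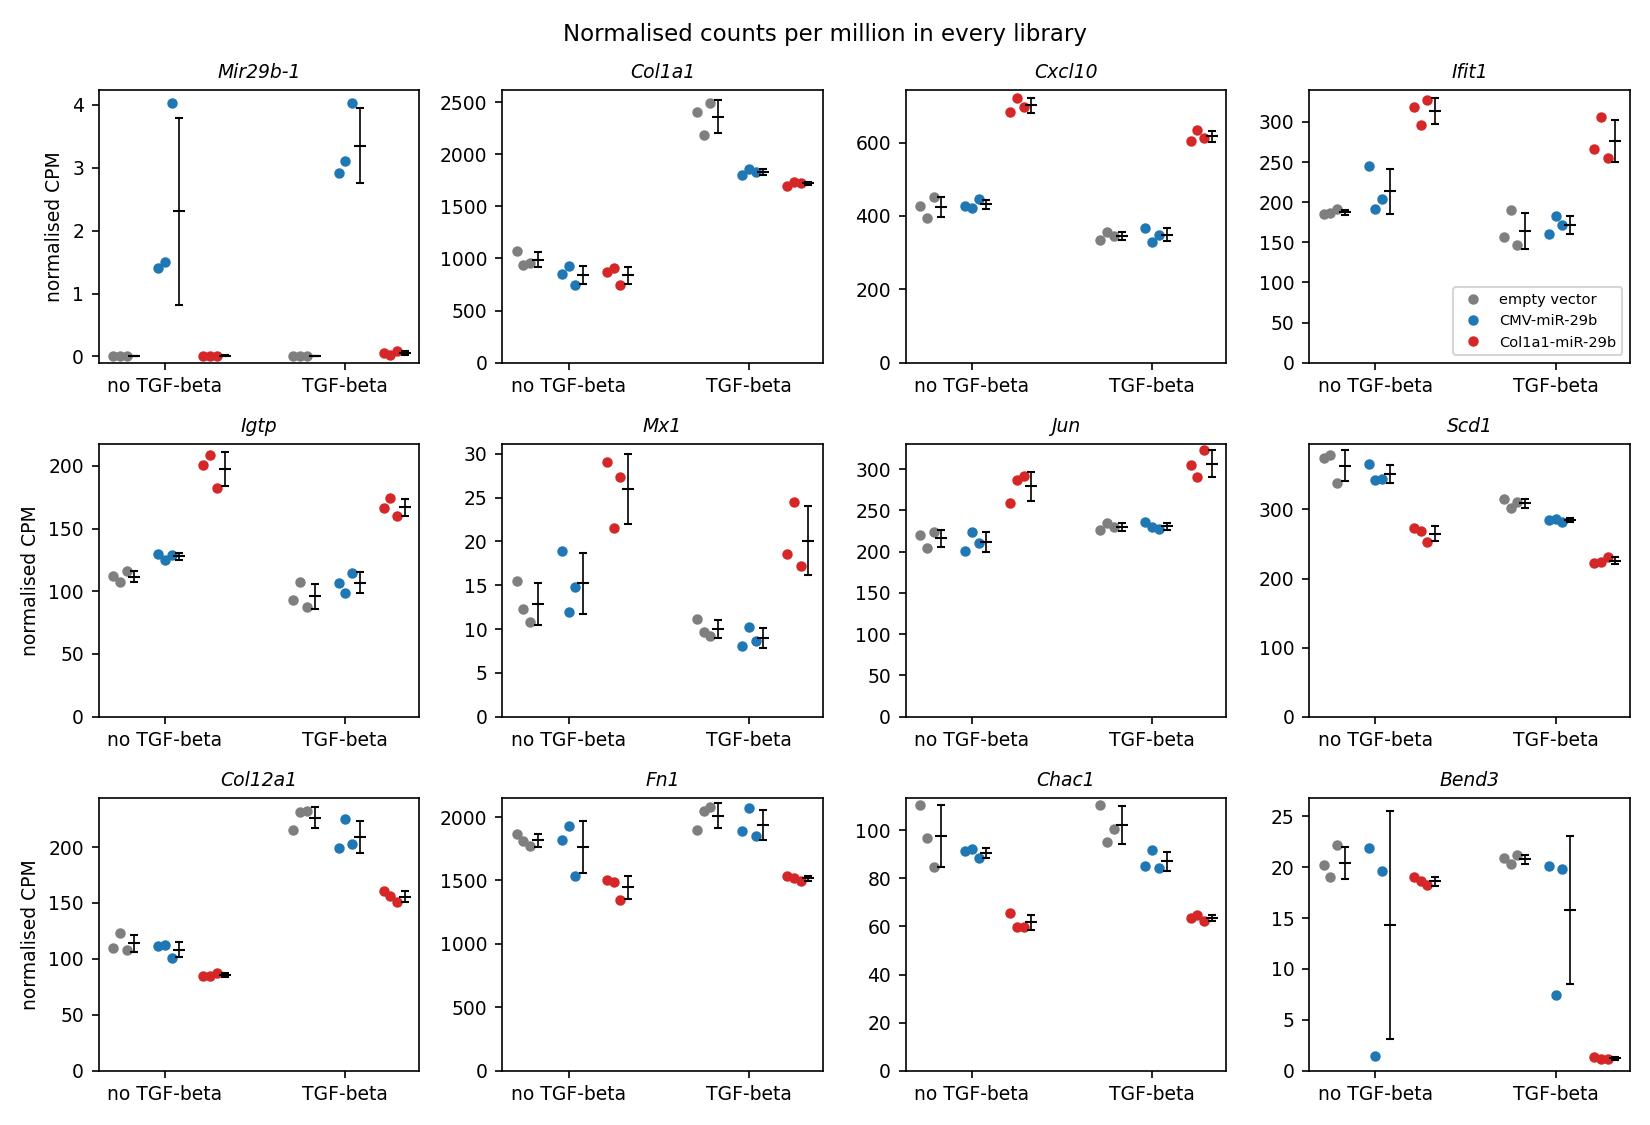
Normalised CPM of 12 genes in all 18 libraries, 3 points per group, with the group mean and standard deviation in black beside them; grey is the empty vector, blue CMV-miR-29b and red Col1a1-miR-29b. The Cxcl10, Ifit1, Igtp and Mx1 libraries of the Col1a1-miR-29b vector lie above those of both other vectors with TGF-β, and Mir29b-1 is seen in the CMV-miR-29b libraries.

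Of 19 cytosolic nucleic acid sensors and adaptors, 1 rose, Dhx58, an RNA helicase of the RIG-I family (42.9, 46.9 and 48.8 CPM against 62.7, 69.0 and 55.3, log2 fold change 0.43, adjusted p = 0.0454). The background is 0.912% called higher. The median of that list was 0.236, 16 of the 19 had a positive log2 fold change, and libraries did not overlap for 10 in the higher direction and for 0 in the lower (background 11.7% and 11.6%). Of 20 interferon ligands, receptors and factors, 2 rose (background 0.912%), and libraries did not overlap for 3 in the higher direction. Irf7, the transcription factor that amplifies interferon production, had 210, 202 and 207 CPM against 273, 268 and 256 (log2 fold change 0.37, adjusted p = 0.0139). Socs3, a feedback inhibitor of cytokine receptors, had 61.4, 50.9 and 51.6 CPM against 72.1, 65.2 and 67.4 (log2 fold change 0.32, adjusted p = 0.0495). The median of the 20 was 0.044, and turned to −0.003 without Col1a1-miR-29b replicate c. Of 24 genes of MHC class I antigen presentation, B2m, H2-T22 and H2-D1 rose (background 0.912%) and none fell, with a median of 0.161. Libraries did not overlap for 11 of the 24 in the higher direction and for 0 in the lower. B2m, the light chain of the class I complex, had 1381, 1278 and 1310 CPM against 1600, 1606 and 1522 (log2 fold change 0.25, adjusted p = 0.0178). H2-D1 and H2-T22, heavy chains with near relatives among which reads may be split, had log2 fold changes of 0.20 and 0.21 (adjusted p = 0.0496 and 0.0474). Of 22 chemokines and cytokines, Ccl5 and Ccl7 were called beside Cxcl10, each higher (background 0.912%). Ccl5 and Ccl7 had log2 fold changes of 0.40 and 0.38 (adjusted p = 0.0138 and 0.0451). Libraries did not overlap for 4 of the 22 in the higher direction and for 0 in the lower.

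Of these genes, Cxcl10, Usp18, Ifit1, Mx1, Oas2, Ifit1bl2, Igtp, Gbp6, Irgm2 and Gbp9 were called in all 6 fits that left out 1 library, with adjusted p of at most 0.0475. Others were lost: Irf7 without CMV-miR-29b replicate d or Col1a1-miR-29b replicate c or d, B2m without any of these 3 or CMV-miR-29b replicate e, and Ccl5 without replicate c or d of CMV-miR-29b or replicate c or the unlettered library of Col1a1-miR-29b, with adjusted p of up to 0.0843, 0.112 and 0.0591. Socs3 and Ccl7 were called in 1 of the 6 fits, that without CMV-miR-29b replicate c, and Dhx58, H2-T22, H2-D1 and Gm12250 in none, with adjusted p of up to 0.225. The count of effectors that rose was 8 without CMV-miR-29b replicate d, without Col1a1-miR-29b replicate c or without Col1a1-miR-29b replicate d, and 10 to 13 without each of the other libraries. That of the GTPases was 5 to 6.

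The interferon-stimulated response element, a promoter sequence bound by interferon-activated factors, has the core GAAA, 2 bases of any kind and GAAA. It was searched on both strands of the RefSeq promoters of GRCm38.p6, from 250 bases before to 50 after each start, with overlapping matches counted as held once. It was found in 3.44% of the 32851 promoters. Of the 193 genes called higher, 148 had a promoter in the table and 18.9% of these held the core, against 3.75% of 160 among the genes called lower and 3.75% of 12362 genes tested. Of 31 antiviral effectors with a promoter, 48.4% held it, and of 11 GTPases, 90.9%. Among the 127 genes called higher with a promoter and in none of the 6 interferon, antigen and cytokine lists, the share was 9.45%. That set was defined by absence from the lists alone. Called genes such as Ifit1bl2 and Gm12250 are outside the lists, so genes outside them are not all unrelated to interferon. The windows of Cxcl10, Ifit1, Igtp, Irgm2 and Oas1a are printed as examples of called chemokine, effector and GTPase genes, picked after their values were seen, with the core in capitals as read along the gene.
Cxcl10, chr5:92349083-92349112, minus strand: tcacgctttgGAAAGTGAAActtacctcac
Ifit1, chr19:34640794-34640823, plus strand: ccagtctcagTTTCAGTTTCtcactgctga
Igtp, chr11:58199512-58199541, plus strand: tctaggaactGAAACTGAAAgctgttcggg
Irgm2, chr11:58214903-58214932, plus strand: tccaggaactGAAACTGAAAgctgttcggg
Oas1a, chr5:120907520-120907549, minus strand: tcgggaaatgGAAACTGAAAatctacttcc
In Ifit1 the core lies on the opposite strand, and the promoters of Ifit1 and Oas1a each hold a second match. A match is a description of the letters and not evidence of binding.

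**Figure D3:**
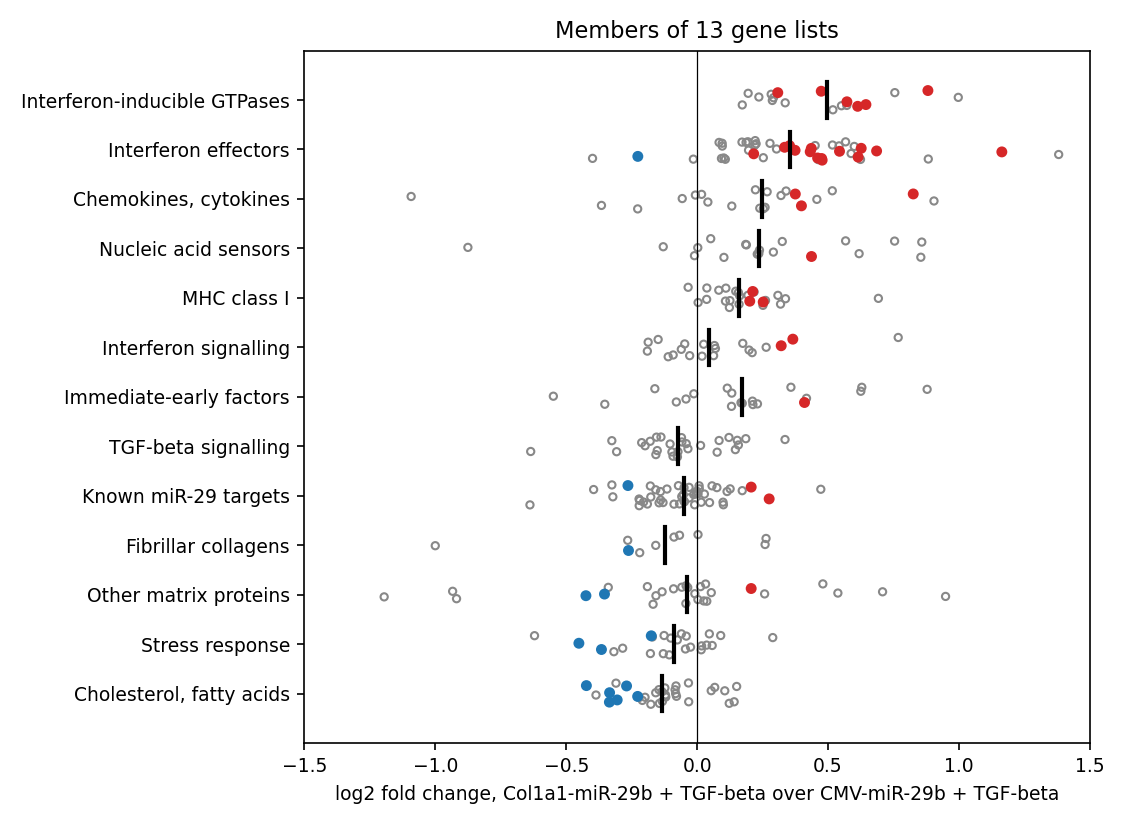
Log2 fold change between the vectors with TGF-β (horizontal axis) of each tested member of 13 gene lists, with the median as a black bar. Filled points are called genes, red higher and blue lower with the Col1a1-miR-29b vector; 1 member lies outside the axis limit of 1.5. The medians of the GTPases (0.496) and effectors (0.353) lie furthest to the right. That of cholesterol and fatty acid synthesis is negative (−0.133). Among all lists, drawn here or not, mitochondrial messenger RNAs (−0.227) and basement membrane collagens and laminins (−0.137) had lower medians.

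Of 32 genes of cholesterol and fatty acid synthesis, 6 fell with the Col1a1-miR-29b vector (background 1.02%) and none rose. The median log2 fold change of the 32 was −0.133, and −0.159 to −0.121 over the alternatives, and 6 members had a positive value. Libraries did not overlap for 17 in the lower direction (background 11.6%) and for 2 in the higher (background 11.7%). With only the 6 libraries, or with limma on either log2(FPKM) scale, 1 member was called. Scd1, the desaturase that makes oleic acid, had 285, 287 and 281 CPM with the CMV-miR-29b vector and 222, 223 and 231 with the Col1a1-miR-29b vector. The 2 groups lay far apart for their spread, at a difference of −0.33 ± 0.04 (log2 fold change ± SE, adjusted p = 0.00374). Its relative Scd2 had 645, 768 and 659 CPM against 574, 541 and 529 (log2 fold change −0.34, adjusted p = 0.0256). Sqle, the squalene epoxidase, had 127, 141 and 131 CPM against 88.4, 99.1 and 109.8 (log2 fold change −0.42, adjusted p = 0.0489). Fdps and Cyp51, a farnesyl diphosphate synthase and a lanosterol demethylase, had log2 fold changes of −0.27 and −0.23 (adjusted p = 0.0131 and 0.0187). Scd1 was called in all 6 fits without 1 library. Scd2 lost its call without CMV-miR-29b replicate d or any single Col1a1-miR-29b library (adjusted p up to 0.14), and Sqle without any single library. Fdps lost its call without CMV-miR-29b replicate d or the unlettered Col1a1-miR-29b library, and Cyp51 kept it in 1 fit, that without CMV-miR-29b replicate e (adjusted p up to 0.0745 and 0.101). The number of members called was 4, 1 and 6 without CMV-miR-29b replicate c, d and e, and 3, 3 and 2 without Col1a1-miR-29b replicate c, d and the unlettered one.

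Of 24 genes of the integrated stress and unfolded protein response, which cells use when amino acids run short or proteins misfold in the endoplasmic reticulum, 3 fell (background 1.02%) and none rose, with a median log2 fold change of −0.088. Libraries did not overlap for 12 of the 24 in the lower direction (background 11.6%) and for 0 in the higher. Without TGF-β, 8 of the 24 were called lower (background 1.0%). Chac1, which breaks down glutathione, had 85.0, 91.8 and 84.4 CPM against 63.7, 64.9 and 62.4 (log2 fold change −0.45, standard error 0.08, adjusted p = 0.0138). Xbp1, a transcription factor of the unfolded protein response, had 123, 127 and 119.5 CPM against 91.6, 94.9 and 99.8 (log2 fold change −0.37, adjusted p = 0.0187). Hsp90b1, a chaperone of the endoplasmic reticulum, had a difference of −0.18 on the log2 scale (adjusted p = 0.0318). Fgf21, a secreted hormone outside the list, was among the 10 largest falls, with 15.6, 16.9 and 15.3 CPM against 8.78, 8.27 and 7.90 (log2 fold change −0.94, adjusted p = 0.012). For each of these 4 genes the highest Col1a1-miR-29b library lay below the lowest CMV-miR-29b library. Calls were lost without CMV-miR-29b replicate d for Chac1, Xbp1 and Fgf21, without Col1a1-miR-29b replicate c for Chac1 and Xbp1, without Col1a1-miR-29b replicate d for Xbp1, without the unlettered Col1a1-miR-29b library for Chac1 and Fgf21, and without any single library for Hsp90b1, with adjusted p of up to 0.0843, 0.107, 0.0625 and 0.148 for Chac1, Xbp1, Fgf21 and Hsp90b1.

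The main collagens did not pass the test between the vectors. Col1a1, the collagen whose promoter drives one of the vectors, had 1800, 1858 and 1828 CPM with the CMV-miR-29b vector and 1699, 1736 and 1725 with the Col1a1-miR-29b vector. The Col1a1-miR-29b libraries were the lower ones in each case, but the difference was −0.09 ± 0.08 (log2 fold change ± SE, adjusted p = 0.677). Col1a2 had 1102, 1326 and 1210 CPM against 1060, 1120 and 1080 (log2 fold change −0.16, adjusted p = 0.469). Col3a1 had 242, 277 and 244 CPM against 214, 224 and 217 (log2 fold change −0.22, adjusted p = 0.35). Each vector was also set against the empty vector with TGF-β, whose libraries both comparisons share. Col1a1 was lower in both, at −0.46 ± 0.08 for Col1a1-miR-29b (log2 fold change ± SE, adjusted p = 0.0021). For CMV-miR-29b it was at −0.37 ± 0.08 (log2 fold change ± SE, adjusted p = 0.12). That second comparison called 2 of 21161 genes in all, so the missing call does not show that Col1a1 stayed unchanged. Acta2, the smooth muscle actin of myofibroblasts, had 11.1, 9.73 and 10.7 CPM against 10.8, 9.71 and 10.2 (adjusted p = 0.943).

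Of 10 fibrillar collagens tested, Col5a3 fell (background 1.02%) and none rose (median −0.123). Libraries did not overlap for 5 of the 10 in the lower direction (background 11.6%) and for 0 in the higher (background 11.7%). Col5a3, a chain of type V collagen with 3 seed matches in its 3' UTR, had 91.1, 103 and 104 CPM against 81.0, 83.2 and 83.8 (log2 fold change −0.26, adjusted p = 0.0358). Of 28 other matrix proteins, 2 fell (background 1.02%) and 1 rose (background 0.912%). Libraries did not overlap for 6 of the 28 in the lower direction and for 2 in the higher. Col12a1, a collagen on the surface of fibrils, had 199, 225 and 203 CPM against 161, 156 and 150 (log2 fold change −0.42, standard error 0.06, adjusted p = 0.00596). Fn1, fibronectin, had 1890, 2075 and 1851 CPM against 1535, 1519 and 1497 (log2 fold change −0.35, adjusted p = 0.0248). Sparc, a matrix protein that binds collagen, was the higher one, with 1051, 1047 and 1019 CPM against 1222, 1188 and 1185 (log2 fold change 0.21, adjusted p = 0.0318). Of 20 basement membrane collagens and laminins, Lama5 fell (log2 fold change −0.23, adjusted p = 0.0474, background 1.02%). The median of the 20 was −0.137, and 3 had a positive log2 fold change. Libraries did not overlap for 8 of them in the lower direction and for 1 in the higher. Col12a1 was called in all 6 fits without 1 library. Fn1 was called in the fit without CMV-miR-29b replicate e and Col5a3 in that without CMV-miR-29b replicate c, and in no other of the 6, and Sparc and Lama5 in none, with adjusted p of up to 0.211.

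Of 48 known miR-29 targets tested, 3 were called between the vectors (background 1.93%). Sparc and Ppm1d, a phosphatase that restrains p53, were higher and Col5a3 was lower with the Col1a1-miR-29b vector, and the median of the 48 was −0.050. Libraries did not overlap for 12 of the 48 in the lower direction (background 11.6%) and for 4 in the higher (background 11.7%). Ppm1d had 40.7, 39.7 and 34.3 CPM against 46.2, 46.1 and 46.6 (log2 fold change 0.28, adjusted p = 0.0475) and lost its call without any single library. Against the empty vector with TGF-β, the median of the 48 was −0.229 with the Col1a1-miR-29b vector and −0.140 with the CMV-miR-29b vector. Of these, 18 were called lower with the Col1a1-miR-29b vector and 0 with the CMV-miR-29b vector. Over all genes, 5.31% were called higher and 7.63% lower for the Col1a1-miR-29b vector against the empty vector, and 0.00945% (2 genes) were called in either direction for the CMV-miR-29b vector.

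Seed matches were counted over all genes with an annotated 3' UTR. The 457 genes with the 8-base match had a median log2 fold change between the vectors of 0.004, the 2160 with a 7-base match only −0.009, and the 11760 without a match 0.002. Genes with matches have longer 3' UTRs, so medians were also taken within 4 classes of 3' UTR length. In the class with the longest 3' UTRs the median was −0.023 for 275 genes with the 8-base match and −0.052 for 2195 genes without a match, and in the class below it 0.041 for 101 genes and −0.011 for 2900. In all 4 classes the genes with the 8-base match had the higher median. With offsets in each library that remove the trend with transcript length and with GC content, the medians were 0.051 with the 8-base match, 0.018 with a 7-base match only and −0.003 without a match. Against the empty vector with TGF-β, the genes with the 8-base match had a median of −0.067 with the Col1a1-miR-29b vector and −0.074 with the CMV-miR-29b vector, and the genes without a match −0.004 and −0.014. These are medians of genes and not of replicates, and no test was made.

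Transcript length moved with the difference between the vectors. In the 4232 longest genes (4500 bases or more) the median log2 fold change was −0.075, with 18 genes called higher and 138 lower, and in the 4232 genes of 1060 to 2050 bases it was 0.061, with 44 higher and 10 lower. In the 4233 shortest genes (54 to 1059 bases) the median was 0.033, with 24 higher and 7 lower, so the trend was not even over the classes. Spearman's rho of length and log2 fold change was −0.12 across all 21161 genes tested. Across the 13925 genes with a mean of at least 1 CPM, rho was −0.23. Both are descriptions over genes that are not independent and share the same 6 libraries. The median transcript of the genes called lower was 5478 bases long, that of the genes called higher 2522, and that of all genes tested 2564. With the offsets for length and GC content, 225 genes were called, 130 higher and 95 lower, and 178 of them were among the 408. In that fit, 17 effectors and 7 GTPases were called higher and 6 genes of cholesterol and fatty acid synthesis lower. Of the genes named so far, Gm27019, Dhx58, Socs3, H2-T22, H2-D1, Ccl5, Ccl7, Sqle, Col5a3, Lama5 and Ppm1d were not called with the offsets. Each kept its sign. With the offsets the log2 fold change was −4.05 for Gm27019, 0.38 for Dhx58, 0.25 for Socs3, 0.19 for H2-T22, 0.14 for H2-D1, 0.35 for Ccl5 and 0.36 for Ccl7. Sqle was at −0.39, Col5a3 at −0.24 and Ppm1d at 0.26, while Lama5 went from −0.23 to −0.14. The matrix genes Col12a1, Fn1 and Sparc kept their calls with the offsets, at −0.28, −0.27 and 0.16, each a smaller change than without them.

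**Figure D4:**
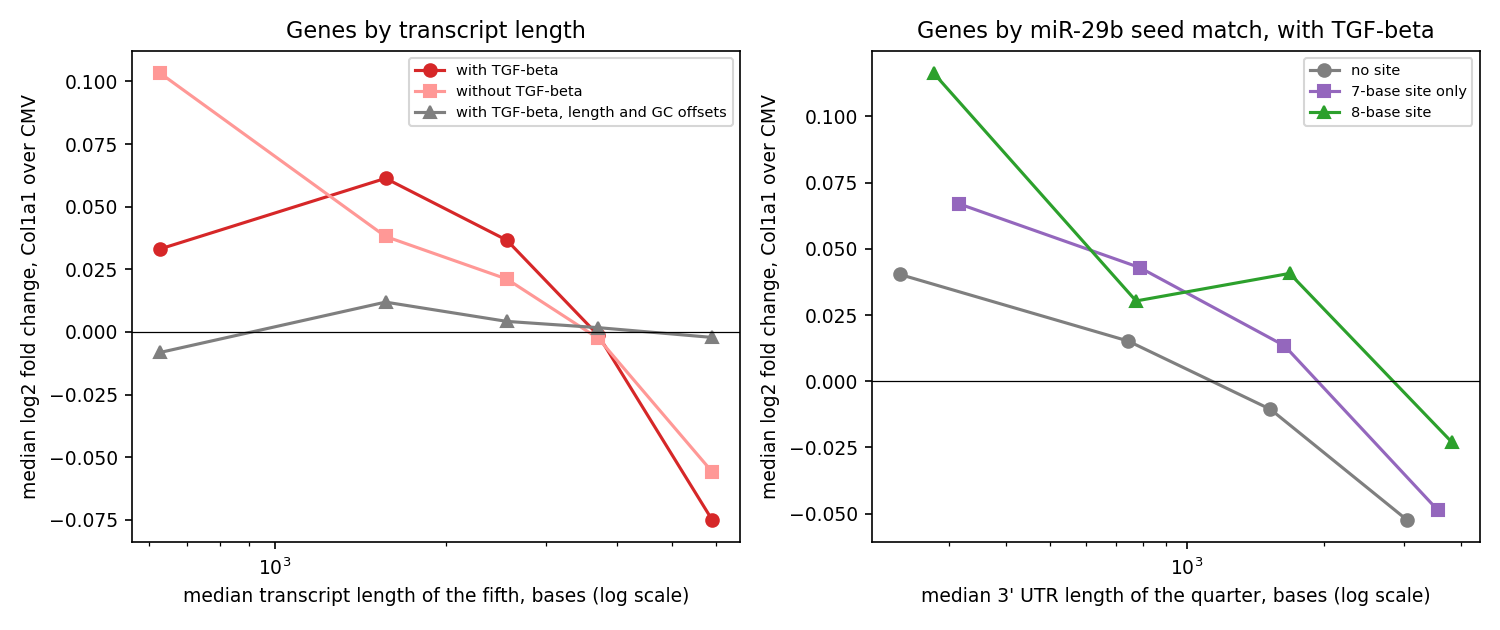
Left, median log2 fold change between the vectors (vertical axis) in 5 classes of transcript length in bases (horizontal axis, log scale), with and without TGF-β and with TGF-β after offsets for length and GC content. Right, the same with TGF-β in 4 classes of 3' UTR length for genes with an 8-base seed match, a 7-base match only or none. The longest class is lowest (−0.075 with TGF-β), and the line of the 8-base match lies above that of genes without a match in each class.

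Among the 10 largest rises and the 10 largest falls by the rule for named genes, Atp2a3, a calcium pump of the endoplasmic reticulum, had 9.53, 10.9 and 11.1 CPM against 5.98, 5.24 and 4.39 (log2 fold change −1.01, adjusted p = 0.00647). Gipr, the receptor of the gut hormone GIP, had 1.69, 2.32 and 2.03 CPM against 0.893, 0.816 and 0.980 (log2 fold change −1.17, adjusted p = 0.0109). Atp2a3 kept its call in all 6 fits without 1 library, and Gipr lost it without CMV-miR-29b replicate d (adjusted p = 0.0625). Bend3, a transcriptional repressor, had 20.2, 7.42 and 19.8 CPM against 1.31, 1.13 and 1.15, a difference of −3.72 on the log2 scale (adjusted p = 0.014). Bend3 was also at 1.47 CPM in 1 of the CMV-miR-29b libraries without TGF-β, against 18.2 to 21.9 in the other 5 libraries of both vectors without TGF-β. Its call was lost without any single Col1a1-miR-29b library (adjusted p up to 0.0663).

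Gsk3b, a kinase of many signalling pathways, had 104, 104 and 103 CPM against 51.2, 49.5 and 49.0 (log2 fold change −1.06, adjusted p = 0.0421), while the empty vector libraries with TGF-β ran from 71.6 to 135. Zbtb18, a repressor, had 51.2, 38.3 and 52.0 CPM against 33.6, 17.3 and 18.2 (log2 fold change −1.03, adjusted p = 0.0451). Mamdc2, Gm14049 and Ralgps1 completed the falls with log2 fold changes of −1.15, −0.93 and −0.91. On the other side, Ptk6, a tyrosine kinase, had 0.831, 0.612 and 1.24 CPM against 3.29, 2.50 and 2.51 (log2 fold change 1.63, adjusted p = 0.0188). Zfp263, a zinc finger protein, had 18.8, 19.3 and 22.99 CPM against 40.1, 40.1 and 41.3 (log2 fold change 0.99, adjusted p = 0.0123), and in the empty vector libraries with TGF-β it was 41.1, 42.7 and 22.7. 1700055D18Rik, Gm45629, Gm4951, Gm10425 and Tssk4 completed the rises, at log2 fold changes of 0.92 to 1.20. Zfp263 was lost without CMV-miR-29b replicate d (adjusted p = 0.068). Gsk3b, Mamdc2, Gm14049, Gm45629, Gm4951 and Tssk4 were lost without any single library, and Zbtb18, Ralgps1, Ptk6, 1700055D18Rik and Gm10425 without 4 or 5 of the 6, CMV-miR-29b replicate d and the unlettered Col1a1-miR-29b library among them, with adjusted p of up to 0.208. With the offsets for length and GC content, Gm45629, Gm4951, Gm10425, Tssk4, 1700055D18Rik, Mamdc2, Gsk3b, Zbtb18 and Gm14049 were not called, with adjusted p of 0.0505 to 0.0712. Each kept its sign, with log2 fold changes in that fit of 1.01 for Gm45629, 0.99 for Gm4951, 0.93 for Gm10425, 0.86 for Tssk4 and 1.20 for 1700055D18Rik. Mamdc2 was at −1.14, Gm14049 at −0.94, Zbtb18 at −0.96 and Gsk3b at −0.94.

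Of the other lists, 20 immediate-early factors had 1 call, Jun, a subunit of AP-1, which was higher (background 0.912%). Jun had 235, 229.5 and 227 CPM against 305, 290 and 324 (log2 fold change 0.41, standard error 0.05, adjusted p = 0.00362). Its call stood in all 6 fits without 1 library. Of the 20, 14 had a positive log2 fold change (median 0.170). Libraries did not overlap for 10 of the 20 in the higher direction (background 11.7%) and for 1 in the lower (background 11.6%). Of 33 cell cycle genes, Ccne1, the cyclin of S phase entry, rose (log2 fold change 0.53, adjusted p = 0.021, background 0.912%). The mitotic genes Top2a and Kif11 fell (−0.18 and −0.15, adjusted p = 0.0248 and 0.0434, background 1.02%). Of the 33, 26 had a positive log2 fold change (median 0.076). Libraries did not overlap for 15 in the higher direction (background 11.7%) and for 3 in the lower (background 11.6%). Hmox1, which breaks down haem, Aen, a p53 target, Bag3, a co-chaperone, and Nfkbib, an inhibitor of NF-kB, each were the one call of their list (background 1.93%). Their log2 fold changes were 0.26, 0.22, 0.17 and 0.33 (adjusted p = 0.0187, 0.0402, 0.0451 and 0.0107). Libraries did not overlap in the higher direction for 7 of 20 antioxidant genes, 7 of 20 p53 targets, 6 of 12 heat shock genes and 3 of 19 NF-kB genes. In the lower direction the numbers were 0, 1, 1 and 3. Pdk1, a kinase that holds back pyruvate oxidation, and Tnrc6c, a partner of Argonaute, were the calls of the glycolysis and microRNA processing lists, at −0.14 and −0.21 (adjusted p = 0.0448 and 0.0249). Libraries did not overlap in the lower direction for 7 of 22 glycolysis genes and 4 of 12 microRNA processing genes. In the higher direction the numbers were 0 and 1. Myh10, a non-muscle myosin, fell by 0.22 and Cfl1, cofilin, rose by 0.19 on the log2 scale (adjusted p = 0.0138 and 0.0399). Npc2 and Lamp1 rose by 0.17 to 0.20, of 31 lysosome genes (background 0.912%). Of 87 nuclear genes of oxidative phosphorylation, Atp5g3 and Sdhd rose, by 0.23 and 0.21 (background 0.912%), and none fell (background 1.02%). Of the 87, 72 had a positive log2 fold change (median 0.113), and libraries did not overlap for 33 in the higher direction (background 11.7%) and for 0 in the lower. Rps25 was the one call among 85 ribosomal proteins (background 1.93% in either direction), with 155, 164 and 155 CPM against 256, 257 and 239 (adjusted p = 0.048). It has pseudogenes with which reads may be shared. Rps25 was at 157, 149 and 250 CPM in the CMV-miR-29b libraries without TGF-β. Except for Jun, each call of this group was lost in at least 2 of the 6 fits without 1 library, with adjusted p of up to 0.201, and each of them without CMV-miR-29b replicate d. With the offsets, Jun, Nfkbib, Aen, Ccne1, Npc2 and Atp5g3 kept their calls and the other genes of this group did not. These kept their sign, with log2 fold changes there of 0.11 to 0.19 for Bag3, Cfl1, Lamp1, Sdhd and Hmox1, 0.61 for Rps25, and −0.13 to −0.08 for Top2a, Kif11, Pdk1, Tnrc6c and Myh10.

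No gene was called among 28 genes of TGF-β signalling (median −0.074), 24 matrix proteases and inhibitors (0.049), 21 genes of collagen maturation and crosslinking (−0.042), 14 smooth muscle genes (0.037), 15 integrins (−0.053), 16 small nucleolar RNA host genes (0.047) and 13 mitochondrial messenger RNAs (−0.227). For 7 of these 13 the libraries did not overlap in the lower direction (background 11.6%), and for 0 in the higher (background 11.7%). Among matrix proteases and inhibitors the libraries did not overlap for 7 in the higher direction and 0 in the lower. In the same order, the numbers were 5 and 7 for TGF-β signalling, and 5 and 3 for collagen maturation and crosslinking. They were 3 and 1 for smooth muscle genes, 2 and 2 for integrins, and 1 and 0 for small nucleolar RNA host genes. Timp2, an inhibitor of matrix proteases, had 314, 296 and 307 CPM against 353, 347 and 343, with libraries that did not overlap (log2 fold change 0.18, adjusted p = 0.0885). Loxl2 and P4hb, which crosslink and hydroxylate collagen, had log2 fold changes of −0.05 and −0.10 (adjusted p = 0.762 and 0.165). With the offsets for length and GC content P4hb was called (log2 fold change −0.14, adjusted p = 0.0247), and DESeq2 called Timp2 (adjusted p = 0.0404).

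The same vectors were also compared without TGF-β, in 6 other libraries. There, 170 genes were called higher (0.803%) and 212 lower (1.0%), and with scaling by total counts 188 higher and 145 lower. Of the 408 genes called with TGF-β, 392 (96.1%) had the same sign without it, where 63.7% of all genes did, and 138 were called in both, all in the same direction. These 138 were 33.8% of the calls with TGF-β and 36.1% of the 382 without. Cxcl10 had a log2 fold change of 0.70 without TGF-β (adjusted p = 7.54e-06), Igtp 0.63 (adjusted p = 0.00146) and Scd1 −0.41 (adjusted p = 0.00121). The interferon effectors had a median of 0.258 without TGF-β and the GTPases 0.405, with 10 and 7 genes called higher. In the list of cholesterol and fatty acid synthesis 11 genes were called lower without TGF-β, with a median of −0.247.

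A test of whether the difference between the vectors changes with TGF-β called 0 of 21161 genes (0%) in edgeR's fit, with 1083 genes at an unadjusted p under 0.05. DESeq2 called 34 genes, and limma on log2(FPKM + 1) and log2(FPKM + 0.1) called 3 and 2. The smallest adjusted p in edgeR, 0.0619, was that of Plpp6, a phosphatase of isoprenoid diphosphates, which was picked for this value. Plpp6 had 30.2, 30.6 and 32.3 CPM in the CMV-miR-29b libraries with TGF-β and 20.5, 15.998 and 18.7 in the Col1a1-miR-29b libraries with TGF-β. Its log2 fold change between the vectors was −0.75 with TGF-β (adjusted p = 0.00224) and 0.21 without it (adjusted p = 0.287). Beside Mir29b-1 it was the one gene called for the CMV-miR-29b vector against the empty vector with TGF-β, at a difference of 0.87 on the log2 scale (adjusted p = 0.0015).

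**Figure D5:**
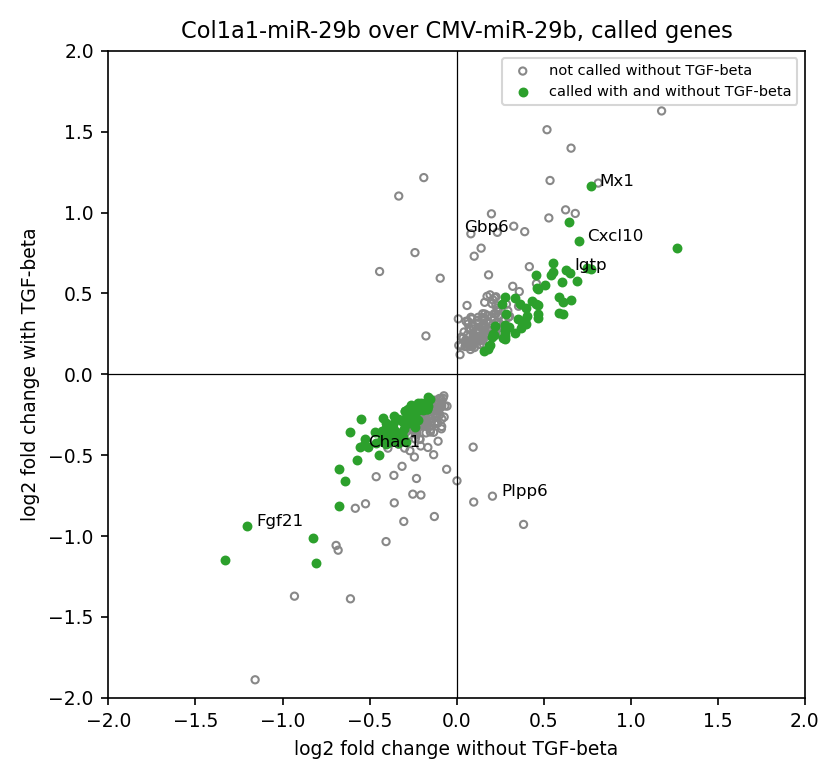
Log2 fold change between the vectors with TGF-β (vertical axis) against that without TGF-β (horizontal axis) for the genes called with TGF-β, in which green points were also called without it. Of the 408 genes, 7 lie outside the axis limits of 2. Most points lie in the upper right and lower left, and Plpp6 lies at 0.21 and −0.75.

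Set side by side against the empty vector with TGF-β, with which both vectors share the control libraries, the 193 genes called higher had a median log2 fold change of 0.346 with the Col1a1-miR-29b vector and 0.011 with the CMV-miR-29b vector. For the 215 genes called lower the medians were −0.376 and −0.072. Cxcl10 was at 0.84 and 0.01, Usp18 at 0.66 and 0.04, and Igtp at 0.80 and 0.15. Scd1 was at −0.45 and −0.12, Chac1 at −0.68 and −0.23, and Fgf21 at −1.18 and −0.25. Of 43 effectors, 20 were called higher for the Col1a1-miR-29b vector against the empty vector and 0 for the CMV-miR-29b vector. Of 18 GTPases the numbers were 12 and 0, and of 32 genes of cholesterol and fatty acid synthesis 11 and 0 were called lower. Over all genes 5.31% were called higher and 7.63% lower for the Col1a1-miR-29b vector, but 0.00945% in either direction for the CMV-miR-29b vector, so the counts of 0 say nothing about these lists.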

How the data were processed

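RNA sequencing data of 18 MEF libraries were used. Per the paper's methods and the labels, the authors trimmed reads with cutadapt, checked them with FastQC, mapped them with HISAT2 and assembled transcripts with StringTie. The counts were deposited per gene without normalization; how they were taken from the assemblies is not given in the sources used here. Among counts of 1 to 40, multiples of 4 made up 33.8% to 36.7% per library, where chance gives 25%. FPKM per gene were deposited as well, which the authors computed in DESeq2. The labels name mm9, but 52543 of the 55450 genes have coordinates identical to GENCODE M21 of GRCm38, which was used for lengths and 3' UTRs.

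Table columns were assigned through their names. In both Col1a1-miR-29b groups 1 column ends in a letter found in no title; it counts as a library of the group without a letter. Its FPKM column was left out in both groups (2 columns).

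The count tests used edgeR 4.0.16 (R 4.3.3), with filterByExpr, TMM normalization, 1 mean per group over all 18 libraries and quasi-likelihood tests. CPM are TMM-scaled. Standard errors came from the F statistic. Scripts were tested on simulated data. Same-letter libraries of the 2 groups had deviations correlated at −0.02 and 0.02, so no block was used. The 31 gene lists and the genes compared were chosen with earlier results of these data known. Named genes were Mir29b-1, Mir29b-2, Col1a1, Col1a2, Col3a1 and Acta2, the 10 largest rises and falls among called genes with a mean of at least 1 CPM and no overlap, and per list the 4 largest called changes or, with none, the 2 highest genes; further list members, Gm27019 and Plpp6 were named after their values were seen. Alternatives were DESeq2 1.42.0, other scalings and filters, the 6 libraries alone, the replicate block, each library left out, limma 3.58.1 on FPKM, counts divided by 4, length and GC offsets and a test against a 2-fold change. A fit without the unlettered libraries was added after seeing the data. Some named genes are not reported here.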

Additional observations from a re-analysis of the deposited data

How the results depend on the processing

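The 408 calls between the vectors with TGF-β became 1129 with DESeq2, 180 with a filter of at least 1 count in any library, 48 with only the 6 libraries, 83 and 41 with limma on log2(FPKM + 1) and log2(FPKM + 0.1), 225 with offsets for length and GC content, and 40 to 137 without 1 library. The replicate block, in which the letter entered the model, called 13 genes, and 14 together with the offsets, whereas the same 16 libraries without the block called 39. Deviations of same-letter libraries from their group means correlated at −0.02 and 0.02 over 11497 genes. Over all groups the mean correlation was 0.011 for same-letter pairs and −0.006 for different-letter pairs. Correlations over so many genes cannot exclude an effect that same-letter libraries share on some genes. In that order without DESeq2, genes called at least 2-fold were 11, 7, 2, 6, 15, 4 to 16 without 1 library, 2 with the block, 2 with block and offsets, and 3 without the unlettered libraries, against 25, and 1 gene passed a test against a 2-fold change. Other scalings, a filter of 10 counts in every library and counts divided by 4 gave 388 to 577 calls.

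Without TGF-β, 382 calls became 1198 with DESeq2, 202 with at least 1 count, 18 with the 6 libraries, 62 and 56 with limma, 29 with the replicate block, 35 with block and offsets, and 79 without the unlettered libraries. The change with TGF-β had 34 calls with DESeq2, 1 with 12 libraries, 3 and 2 with limma, 2 with the replicate block with or without offsets, 2 without the unlettered libraries and 0 to 2 without 1 library.

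Antiviral effectors higher were 25 with DESeq2, 4 with 6 libraries, 5 with the replicate block, 3 with block and offsets, and 8 to 13 without 1 library. GTPases higher were 12 with DESeq2, 2 with 6 libraries, 2 with the replicate block and 5 to 6 without 1 library. Cholesterol and fatty acid genes lower were 10 with DESeq2, 1 with 6 libraries, 1 with each limma scale, 1 with the replicate block, 2 with block and offsets, 1 without the unlettered libraries and 1 to 6 without 1 library. Mir29b-1 passed under each alternative that gave it an adjusted p; DESeq2 gave NA, and a filter of 10 counts removed it. Of 66 named genes with calls, 15 kept them without each library, 7 with the replicate block (Mir29b-1, Oas2, Usp18, Gbp6, Igtp, Cxcl10 and Scd1) and 36 with offsets, and all 66 kept their sign without each library.

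Smurf2, Ltbp3 and Gas5, which had no call, changed sign. Smurf2 was at 0.0097 with offsets and 0.031 with block and offsets. Ltbp3 was at −0.081 to 0.036 without 1 library, above 0 without CMV-miR-29b replicate e and, at 0.0037, without Col1a1-miR-29b replicate d. Gas5 was at 0.0094 with the replicate block, −0.070 to 0.026 without 1 library, above 0 without CMV-miR-29b replicate d and, at 0.0020, without the unlettered Col1a1-miR-29b library, 0.012 with both limma scales and with block and offsets, and 0.0027 without the unlettered libraries. The cause of these changes was not tested. Genes with fewer than 10 counts give folds that depend on few reads.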
